A study of Rattus norvegicus with 12 samples.

Results

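The 9 genes described here are those by which a neuron makes, loads, recovers and breaks down acetylcholine, and the genes of the muscarinic receptors that answer to it. They were taken by symbol, whatever their values, from the 32623 genes of the deposited count tables: Chat, Slc18a3, Slc5a7, Ache, Chrm1, Chrm2, Chrm3, Chrm4 and Chrm5. The dorsal horn of lumbar segment L5 was cut by laser microdissection into a superficial part (laminae I–II) and a deep part (laminae III–VI), and the RNA of each was sequenced. There were 12 libraries, 3 for each layer and treatment. All rats, Saline rats included, were 8-week-old OT-hM3Dq-mCherry transgenic rats of a Wistar line, heterozygous by the methods and male by the reporting summary of the study. In this line the oxytocin promoter drives hM3Dq, a modified human muscarinic M3 receptor that responds to clozapine-N-oxide (CNO), fused to mCherry. Spinal cords were taken 120 min after the rats received Saline or 1 mg per kg of CNO under the skin. The libraries used here hold no wild-type rats given CNO, so the injected drug and the activation of oxytocin neurons cannot be told apart. The methods give 30 dissected specimens from 3 rats for each group, and the labels do not tie a library to a rat, so the p-values measure the spread between these libraries.

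Acetylcholine is made from choline and acetyl-CoA by choline acetyltransferase, packed into vesicles, and after release broken down by acetylcholinesterase, so that its choline can be taken up again. Muscarinic receptors answer to it through G proteins: M1, M3 and M5 act through Gq and phospholipase C, whereas M2 and M4 act through Gi and Go, which lower cyclic AMP and open potassium channels. In the spinal cord, acetylcholine is the transmitter of motoneurons and of sparse interneurons of the dorsal horn and the region around the central canal, and muscarinic agonists given to the spinal cord lessen nociceptive responses in rodents.

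The libraries held 5245952 to 6576869 counts in laminae I–II and 6052051 to 7889953 in laminae III–VI. Of the 9 genes, 8 passed the filter on low counts in the fit of all libraries, and Slc18a3 did not. Levels below are in CPM, counts scaled to a common library total, while log2 differences come from fits that also scale the libraries by TMM, a factor computed from most genes. Levels of different genes are not compared, because no transcript length was used. The layers were checked against markers of superficial dorsal horn neurons (Tac1, Tac3, Nmu and Calb1), all 4 of which were higher in laminae I–II, where their summed level was 282 to 359.8 CPM against 30.4 to 52.7 CPM in laminae III–VI. Fewer cells of a type and less RNA per cell cannot be told apart in such tissue samples, here and below.

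All 8 tested genes differed between the layers at an adjusted p under 0.05 (quasi-likelihood test of edgeR, Benjamini-Hochberg adjustment over 13745 genes, 6 libraries per layer), against 58.4% of all tested genes. Chat did not pass the filter within laminae I–II alone, and Chrm1, Chrm4 and Chrm5 did not within laminae III–VI alone. They entered this test through the layer where they were higher, so a layer difference without overlap was partly built into their being tested. Chrm1, Chrm3, Chrm4 and Chrm5 were higher in laminae I–II, and Chat, Slc5a7, Ache and Chrm2 were lower there. The groups of 6 libraries did not overlap for 6 of the 8, against 37.6% of all tested genes. The sizes of the receptor differences were read against those of all genes: 4 were over 1 on the log2 scale higher in laminae I–II, as were 6.14% of all tested genes, 3 were over 2 (1.69% of genes), and Chrm5 was over 3 (0.567% of genes). Chrm1, Chrm4 and Chrm5, the 3 over 2, had 0 to 4, 3 to 13 and 3 to 9 counts in the deep libraries. Their sizes rest on these few counts and on passing the filter through laminae I–II, so the shares are a description only.

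**Figure D1:**
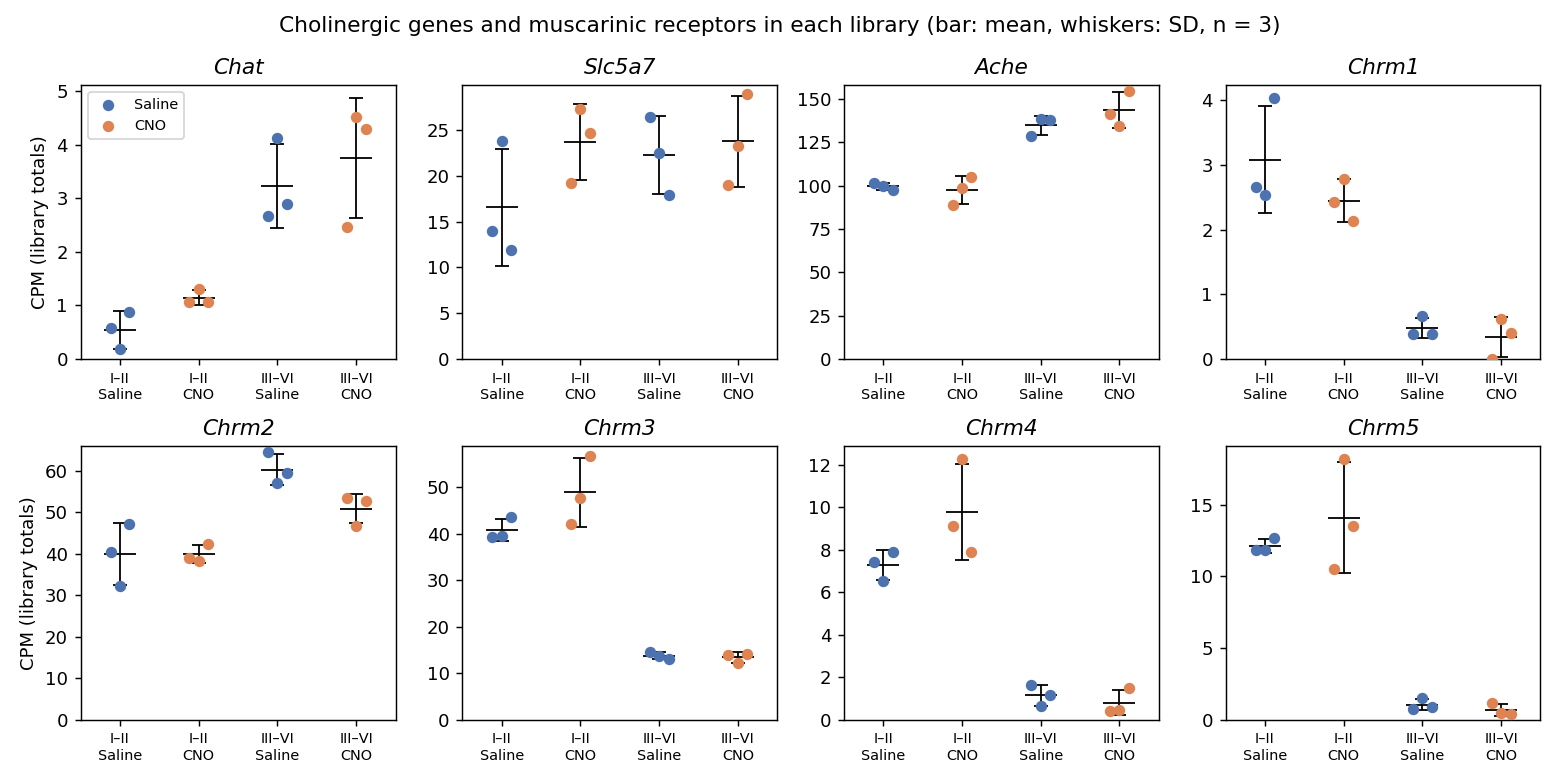
Level of 8 of the 9 genes in every library, in CPM on a linear axis from 0, by layer (laminae I–II or III–VI) and treatment (Saline blue, CNO orange), with the mean as a bar and the SD of 3 libraries as whiskers. Chat and Ache sit lower and Chrm1, Chrm3, Chrm4 and Chrm5 sit higher in all 6 libraries of laminae I–II than in any library of laminae III–VI, and Slc18a3 is not drawn because it had 0 counts in all 12.

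Chat (ENSRNOG00000025012, chromosome 16, 8577840 to 8686131, minus strand in the Rnor6 build of the deposited annotation) encodes choline acetyltransferase, the enzyme that defines a cholinergic neuron. It was sparsely counted, with 3, 1 and 5 counts in the Saline libraries 1 to 3 and 7, 8 and 7 in the CNO libraries of laminae I–II. In the deep layer the Saline libraries held 21, 25 and 22 counts and the CNO libraries 17, 29 and 32. Every deep library held more than every superficial one. As CPM the superficial libraries lay at 0.182 to 1.31 with a median of 0.971, and the deep libraries at 2.47 to 4.52 with a median of 3.51. Chat was 4.83-fold lower in laminae I–II (log2 difference −2.27 ± 0.29 SE, edgeR adjusted p = 6.13e-07).

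Slc18a3 (ENSRNOG00000062141, chromosome 16, 8682669 to 8685529, minus strand, Rnor6) encodes the vesicular acetylcholine transporter, which loads the transmitter into vesicles. It had 0 counts in all 12 libraries, which allows a level of up to 0.380 to 0.572 CPM per library, depending on its total (3 counts, counting error only). The gene lies inside the span of Chat on the same strand, and 100% of its 2861 bases are shared with that span. How the counting treated reads in a gene inside another one is not given in the sources used here, so the 0 says nothing firm about the transcript, and reads of Slc18a3 could also stand under Chat. This was not tested.

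Slc5a7 (ENSRNOG00000010597, chromosome 9, 5294381 to 5330815, minus strand) encodes the high-affinity choline transporter of cholinergic terminals. It lay at 11.9 to 27.2 CPM in laminae I–II with a median of 21.5, and at 17.9 to 29.0 CPM in laminae III–VI with a median of 22.8. The layers overlapped. The fit gave a log2 difference of −0.40 ± 0.14 (SE, edgeR adjusted p = 0.0183), which did not hold: with library totals in place of TMM it was −0.22 (adjusted p = 0.184), with DESeq2 the adjusted p was 0.0975, and leaving out any 1 of 5 libraries (Saline 1 or 3 or CNO 1 of laminae I–II, Saline 1 or CNO 3 of laminae III–VI) gave an adjusted p of 0.0534 to 0.0703. The ratio of Chat to Slc5a7 was lower in the superficial layer. There were 0.00763 to 0.0735 Chat counts for each Slc5a7 count in laminae I–II and 0.101 to 0.195 in laminae III–VI, with no overlap. The superficial values rest on 1 to 8 Chat counts, and Chat alone did not overlap either. This ratio was added after values were seen and was not tested, and no share over all genes was computed for ratios.

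Ache (ENSRNOG00000050841, chromosome 12, 22472358 to 22478753, minus strand) encodes acetylcholinesterase, which ends the signal by splitting acetylcholine. It was found at 88.9 to 105 CPM in laminae I–II (median 99.2) and at 129 to 155 CPM in laminae III–VI (median 138). The groups did not overlap, and the spread within each layer was narrow. Ache was 1.60-fold lower in laminae I–II (log2 difference −0.68 ± 0.05 SE, edgeR adjusted p = 8.67e-11).

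Chrm2 (ENSRNOG00000046972, chromosome 4, 64088900 to 64091090, plus strand) encodes the M2 receptor, a Gi-coupled receptor found on cholinergic neurons themselves as an autoreceptor and on other neurons. It was the only receptor gene of the 5 that was lower in the superficial layer. Its level was 32.2 to 47.1 CPM in laminae I–II (median 39.7) and 46.7 to 64.4 CPM in laminae III–VI (median 55.2). The layers overlapped only between the highest superficial Saline library and the lowest deep CNO library, and within each treatment they did not. The log2 difference was −0.65 ± 0.07 (SE, edgeR adjusted p = 9.91e-08), a 1.57-fold lower level.

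Chrm4 (ENSRNOG00000017556, chromosome 3, 80833272 to 80841006, plus strand) encodes the M4 receptor, the other Gi-coupled member. It had 36 to 75 counts in the superficial libraries and 3 to 13 in the deep ones, or 6.54 to 12.3 CPM (median 7.90) against 0.436 to 1.65 CPM (median 0.922). Every superficial library was above every deep one. It was 7.41-fold higher in laminae I–II (log2 difference 2.89 ± 0.24 SE, edgeR adjusted p = 6.13e-10). So the 2 Gi-coupled receptor genes differed between the layers in opposite directions.

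Chrm3 (ENSRNOG00000049410, chromosome 17, 63990599 to 63994169, minus strand) encodes the Gq-coupled M3 receptor. It lay at 39.3 to 56.7 CPM in laminae I–II (median 42.9) and at 12.2 to 14.6 CPM in laminae III–VI (median 13.8). No libraries of the layers overlapped, and the deep libraries differed little among themselves. It was 2.89-fold higher in laminae I–II (log2 difference 1.53 ± 0.08 SE, edgeR adjusted p = 3.83e-13). Reads were 36 bases long, and whether reads of the human M3 transgene were counted under rat Chrm3 was not tested. Rnor6 has Chrm3 on the minus strand, whereas the GRCr8 annotation used below for upstream sequences has it on the plus strand. The cause of this difference was not tested.

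Chrm5 (ENSRNOG00000006397, chromosome 3, 103966451 to 104018861, minus strand) encodes the Gq-coupled M5 receptor, known in rodents above all from dopamine neurons of the midbrain. It had 62 to 111 counts in the superficial libraries and 3 to 9 in the deep ones, which is 10.5 to 18.2 CPM (median 12.2) against 0.402 to 1.49 CPM (median 0.841). The lowest superficial library was far above the highest deep one. Chrm5 showed the widest layer difference of the 8 tested genes, 13.6-fold higher in laminae I–II (log2 difference 3.76 ± 0.22 SE, 95% interval 3.31 to 4.22, edgeR adjusted p = 1.11e-12).

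Chrm1 (ENSRNOG00000018385, chromosome 1, 224882439 to 224884205, plus strand) encodes the M1 receptor, the Gq-coupled receptor best known from cortex and hippocampus. It had 14 to 23 counts in the superficial libraries and 0 to 4 in the deep ones. That is 2.13 to 4.04 CPM (median 2.61) against 0 to 0.661 CPM (median 0.398), with no overlap. It was 5.91-fold higher in laminae I–II (log2 difference 2.56 ± 0.36 SE, edgeR adjusted p = 2.18e-06).

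**Figure D2:**
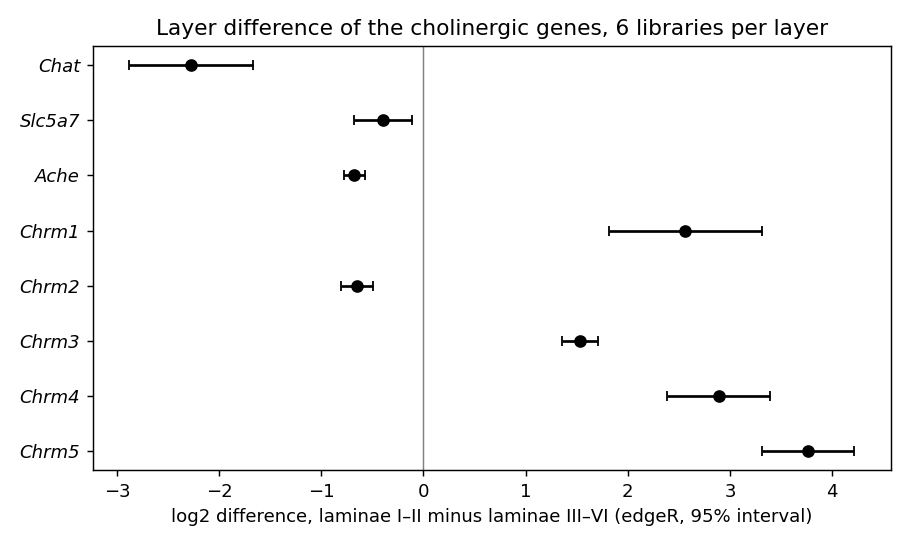
Log2 difference of each of the 8 tested genes, laminae I–II minus laminae III–VI, from the edgeR fit of 12 libraries, with points for the estimate and bars for the 95% interval. The 4 receptor genes Chrm1, Chrm3, Chrm4 and Chrm5 lie between 1.53 and 3.76 to the right of 0, and Chat, Ache, Chrm2 and Slc5a7 lie to the left, Slc5a7 the least at −0.40.

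The direction of these differences did not depend on how the libraries were scaled. TMM factors were 1.05 to 1.07 in laminae I–II and 0.920 to 0.965 in laminae III–VI, so that with library totals only the median gene moved from 0.02 to 0.19 on the log2 scale. The genes called went from 4003 higher and 4022 lower in laminae I–II to 6271 higher and 2397 lower. All 8 genes kept their direction under every alternative tried, and all but Slc5a7 kept an adjusted p under 0.05.

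The receptor make-up of each layer can be read from counts alone. Of the counts of the 5 muscarinic receptor genes in a library, which numbered 510 to 806 in laminae I–II and 388 to 645 in laminae III–VI, Chrm2 held 32.0 to 40.9% in the superficial layer and 76.1 to 79.1% in the deep layer. The share of Chrm3 was 37.8 to 46.3% in the superficial layer and 17.5 to 20.6% in the deep layer. The share of Chrm5 was 10.2 to 15.3% against 0.583 to 2.02%. Chrm2 thus took a larger share of the receptor counts in every deep library, and the Gq-coupled Chrm3 and Chrm5 a larger share in every superficial one. The share of Chrm4 was 6.45 to 10.3% against 0.633 to 2.14%, and that of Chrm1 was 1.74 to 3.51% against 0 to 1.03%. None of the 5 shares overlapped between the layers. The shares are parts of 1 sum in each library, so they are not 5 separate results, and no share over all genes was computed for this. Shares of counts also depend on transcript length, so they compare 1 gene between layers and do not rank the receptors.

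**Figure D3:**
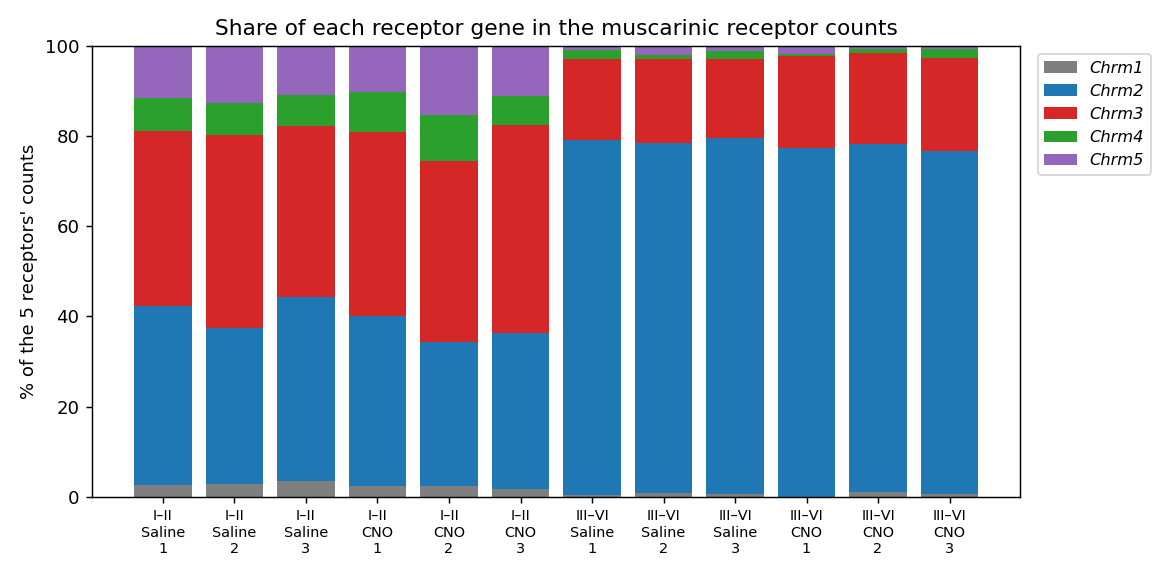
Stacked bars of the percentage that each receptor gene held of the counts of the 5 muscarinic receptor genes, a bar for each of the 12 libraries, labelled by layer, treatment and replicate. The Chrm2 part covers 76.1 to 79.1% of every deep bar and 32.0 to 40.9% of every superficial bar, and within the deep bars the Chrm3 part is 17.5 to 18.7% with Saline and 20.1 to 20.6% with CNO, a difference that was not tested.

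The upstream sequences of 4 genes are shown because they lie on both sides of the layer difference: Chat and Chrm2 as the deeper genes, Chrm3 and Chrm4 as the more superficial ones. Each is the 250 bases before the start of the gene in RefSeq's annotation of the GRCr8 build, another build than that of the positions above, and RefSeq held an entry for 8 of the 9 genes (not Chrm5). They are chr16:7723417-7723666 (minus strand) for Chat, chr4:65982200-65982449 (plus strand) for Chrm2, chr17:64696677-64696926 (plus strand) for Chrm3 and chr3:98348830-98349079 (plus strand) for Chrm4. They are written 5′ to 3′ with matches to 5 searched motifs in capitals, on either strand: the CCAAT box (CCAAT), the GC box (GGGCGG), an E-box (CAGCTG), the TATA box (TATAAA) and the CRE (TGACGTCA).
Chat: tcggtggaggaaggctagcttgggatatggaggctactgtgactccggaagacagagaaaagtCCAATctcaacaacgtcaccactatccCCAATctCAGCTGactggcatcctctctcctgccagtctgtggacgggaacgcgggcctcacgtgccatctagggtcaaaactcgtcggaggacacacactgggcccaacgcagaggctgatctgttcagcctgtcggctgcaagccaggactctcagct
Chrm2: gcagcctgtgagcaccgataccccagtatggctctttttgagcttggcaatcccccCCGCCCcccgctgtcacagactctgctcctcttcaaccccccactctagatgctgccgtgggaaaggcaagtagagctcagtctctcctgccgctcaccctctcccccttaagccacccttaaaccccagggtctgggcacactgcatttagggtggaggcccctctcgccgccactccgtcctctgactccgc
Chrm3: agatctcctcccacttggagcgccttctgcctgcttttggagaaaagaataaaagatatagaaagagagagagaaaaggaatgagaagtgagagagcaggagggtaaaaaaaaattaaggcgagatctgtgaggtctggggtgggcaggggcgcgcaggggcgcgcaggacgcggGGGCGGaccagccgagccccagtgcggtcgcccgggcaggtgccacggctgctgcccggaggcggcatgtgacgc
Chrm4: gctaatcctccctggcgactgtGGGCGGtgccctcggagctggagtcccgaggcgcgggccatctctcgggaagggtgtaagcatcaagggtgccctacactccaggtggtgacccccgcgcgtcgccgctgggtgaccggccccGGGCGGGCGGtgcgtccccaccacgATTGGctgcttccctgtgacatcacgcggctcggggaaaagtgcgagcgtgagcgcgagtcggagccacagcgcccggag

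The Chat sequence held 2 CCAAT boxes and 1 E-box, and its GC content was 57.2%. The Chrm2 and Chrm3 sequences each held 1 GC box, and their GC contents were 62.0% and 60.0%. The Chrm4 sequence held 3 GC boxes, a pair of which overlap in the capitals GGGCGGGCGG, and 1 CCAAT box on the reverse strand (ATTGG), and its GC content was 70.4%, the highest of the 4. None of the 4 held TATAAA or TGACGTCA. Of all 33469 rat sequences of this length, 34.0% held a CCAAT box, 30.5% a GC box, 12.0% this E-box, 12.9% a TATA box and 1.59% a CRE, and the median GC content was 51.2%. No motif was shared by both deeper genes or set them apart from both more superficial ones, and a match is a match of letters only.

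CNO was then compared with Saline within each layer, which asks whether the CNO injection went with a change of these genes at 120 min. In laminae I–II, 0 of the 7 genes that passed the filter changed at an adjusted p under 0.05 (edgeR), against 0.142% of 13344 tested genes. At an unadjusted p under 0.05 there were 2, Slc5a7 and Chrm3, both higher with CNO, against 7.05% of all tested genes. DESeq2 and limma-voom called none of the 7 either.

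Slc5a7 had 73, 131 and 68 counts in the Saline libraries and 126, 166 and 162 in the CNO libraries of laminae I–II. As CPM this was 13.9, 23.8 and 11.9 against 19.2, 27.2 and 24.6. Saline library 2 lay within the range of the CNO libraries, so the groups overlapped. The log2 fold change was 0.51 ± 0.19 (SE, 95% interval 0.10 to 0.92, unadjusted p = 0.0170, edgeR adjusted p = 0.586). With no filter on low counts the adjusted p was 0.0324, the only setting tried that took one of these genes past the threshold.

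Chrm3 lay at 39.3, 39.6 and 43.5 CPM with Saline and at 42.2, 47.7 and 56.7 CPM with CNO in laminae I–II. The lowest CNO library was below the highest Saline library. The log2 fold change was 0.26 ± 0.11 (SE, 95% interval 0.03 to 0.48, unadjusted p = 0.0271, edgeR adjusted p = 0.645).

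Chrm4 lay at 7.43, 6.54 and 7.90 CPM with Saline and at 9.14, 12.3 and 7.91 CPM with CNO. The groups did not overlap, but the lowest CNO and the highest Saline library were nearly equal, and 11.5% of all tested genes in this layer had groups that did not overlap. The log2 fold change was 0.41 ± 0.21 (SE, 95% interval −0.02 to 0.85, edgeR adjusted p = 0.741).

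Chat was below the filter in laminae I–II. All 3 CNO libraries, with 1.07, 1.31 and 1.06 CPM, were above all 3 Saline libraries, with 0.572, 0.182 and 0.878 CPM. The mean was 1.15 ± 0.14 CPM with CNO and 0.544 ± 0.349 CPM with Saline (SD, n = 3 each), a log2 ratio of 1.08, and the two-sided exact permutation test gave p = 0.1, the smallest that 3 against 3 libraries allow. These are 22 counts against 9 in all, and the test could not have passed 0.05 whatever the values.

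The other 4 tested genes gave overlapping groups. Ache had a log2 fold change of −0.03 (95% interval −0.19 to 0.12, edgeR adjusted p = 0.960). Chrm2 had one of −0.01 (−0.25 to 0.24, adjusted p = 0.998) and Chrm5 one of 0.21 (−0.17 to 0.59, adjusted p = 0.867), where the CNO libraries alone ranged from 10.5 to 18.2 CPM. Chrm1 had one of −0.34 (−1.03 to 0.34, adjusted p = 0.878). The intervals of Ache and Chrm2 were narrow, whereas those of Chrm1 and Chrm5 leave room for changes in either direction. In the same libraries the Schwann cell markers Pmp22, Prx and Pmp2 were all lower with CNO (summed level 30.9 to 65.1 CPM against 119.9 to 252 CPM, though Pmp22 and Pmp2 lost their call with DESeq2 and without CNO library 2), and their part in the values of the 9 genes was not tested.

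In laminae III–VI, 0 of the 5 genes that passed the filter changed at an adjusted p under 0.05 (edgeR), against 0.137% of 13117 tested genes. Chrm2 was the only one of them at an unadjusted p under 0.05, against 9.24% of all tested genes. The limma-voom fit called none of the 5. DESeq2 gave an adjusted p only for Ache, which it did not call, and none for Chat, Slc5a7, Chrm2 and Chrm3. Chrm2 lay at 64.4, 57.0 and 59.3 CPM with Saline and at 53.3, 46.7 and 52.6 CPM with CNO. Every CNO library was below every Saline library, as was so, in either direction, for 15.8% of all tested genes in this layer. The log2 fold change was −0.21 ± 0.08 (SE, 95% interval −0.38 to −0.03, unadjusted p = 0.0216, edgeR adjusted p = 0.459).

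Chrm3 lay at 14.6, 13.7 and 13.2 CPM with Saline and at 13.9, 12.2 and 14.2 CPM with CNO in laminae III–VI, and its log2 fold change was −0.00 (95% interval −0.28 to 0.28, edgeR adjusted p = 0.999). Deep libraries held 0.222 to 0.241 Chrm3 counts for each Chrm2 count with Saline and 0.260 to 0.270 with CNO, ranges that did not overlap. Groups did not overlap for 15.8% of single genes in this layer, and no such share was computed for ratios. The ratio was added after values were seen and was not tested, so no CNO effect is read from it. In laminae I–II the same ratio was 0.925 to 1.23 in the Saline libraries and 1.08 to 1.34 in the CNO libraries, and overlapped.

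Ache had 129, 138 and 138 CPM with Saline and 142, 135 and 155 CPM with CNO in laminae III–VI, with a log2 fold change of 0.13 ± 0.07 (SE, 95% interval −0.01 to 0.28, edgeR adjusted p = 0.583). Chat had 2.66, 4.13 and 2.89 CPM against 2.47, 4.52 and 4.29 CPM, with a log2 fold change of 0.28 (95% interval −0.33 to 0.88, adjusted p = 0.807). For Slc5a7 it was 0.14 (−0.17 to 0.44, adjusted p = 0.818). The groups overlapped for all 3. Chrm1, Chrm4 and Chrm5 were below the filter here, with 3, 4 and 3 counts against 0, 4 and 3 for Chrm1, 13, 4 and 9 against 3, 3 and 11 for Chrm4, and 6, 9 and 7 against 8, 3 and 3 for Chrm5. Two-sided exact permutation tests gave p = 0.6, 0.5 and 0.3. With 3 against 3 libraries such a test cannot fall below 0.1, so it could not have passed 0.05 whatever the values.

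**Figure D4:**
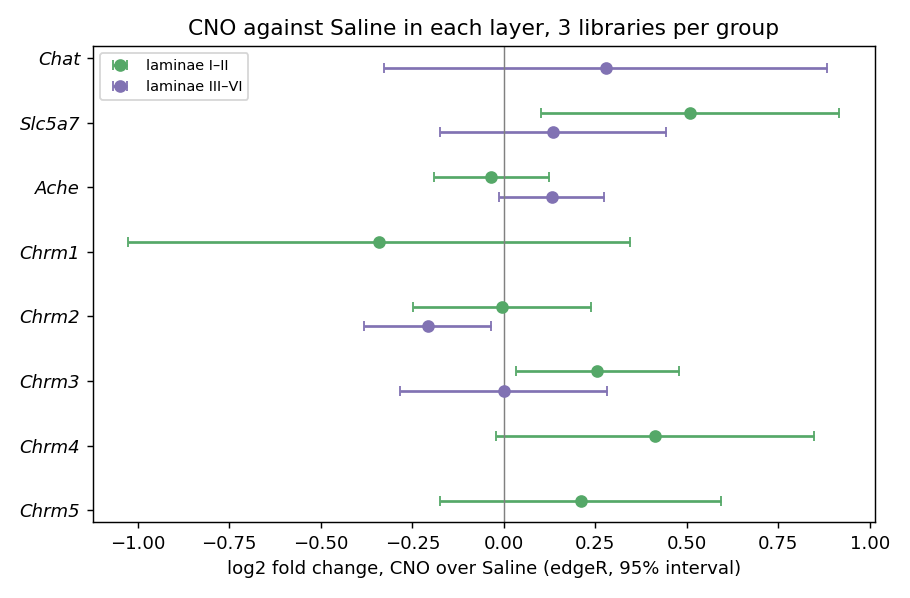
Log2 fold change of CNO over Saline for each tested gene, laminae I–II in green and laminae III–VI in purple, with points for the edgeR estimate and bars for the 95% interval (3 libraries per group). Only the bars of Slc5a7 and Chrm3 in laminae I–II and of Chrm2 in laminae III–VI leave out 0, none at an adjusted p under 0.05, and genes below the filter in a layer have no point.

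The CNO effect was also compared between the layers. It differed in 0 of the 8 genes at an adjusted p under 0.05 (edgeR interaction term), against 0.0146% of 13745 tested genes, and in 0 at an unadjusted p under 0.05, against 5.49%. The adjusted p-values lay between 0.946 and 0.995. The effect on Chrm4 differed by 0.93 ± 0.55 (log2, SE, 95% interval −0.21 to 2.07), the widest of the 8, and that on Chrm2 by 0.21 ± 0.15 (−0.10 to 0.52). The different outcome of Chrm2 in the 2 layers was thus not shown to be a difference between them.

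The nicotinic receptor subunits form the other class of acetylcholine receptor. Of 16 listed genes 15 were in the tables and 7 were tested, of which 2 were higher and 2 lower in laminae I–II, a share close to the 58.4% of all tested genes that differed between the layers. Chrna3 was higher in laminae I–II (16.1 ± 2.48 against 6.93 ± 1.28 CPM, SD over 6 libraries, log2 difference 1.04), as was Chrnb4 (2.50 ± 1.16 against 0.857 ± 0.361 CPM, log2 difference 1.26), the pair that forms the receptor of autonomic ganglia. Chrna4, a subunit of the main high-affinity receptor of the brain, was lower there (66.7 ± 5.82 against 108 ± 11.9 CPM, log2 difference −0.88), and so was Chrna7, the subunit of the receptor with rapid desensitisation (24.3 ± 2.89 against 37.8 ± 2.18 CPM, log2 difference −0.81). The other 3 did not pass the test. With CNO none of the subunits passed in either layer, and the smallest p belonged to Chrnb4 in laminae I–II (log2 fold change −1.05, edgeR adjusted p = 0.541, 6 to 14 counts against 15 to 22) and to Chrna4 in laminae III–VI (0.23, adjusted p = 0.398). Without Saline library 3 of laminae III–VI, Chrna4 passed (0.35, adjusted p = 0.0344).

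Proteins that assemble or modulate nicotinic receptors were read next. All 6 tested genes of the 8 listed passed, against 58.4% of all tested genes: 2 were higher in laminae I–II, Ly6h at 1.22 and Lypd1 at 0.24 on the log2 scale, and 4 were lower, Lypd6b at −1.36, Lynx1 at −0.95, Ric3 at −0.29 and Lypd6 at −0.50. Lynx1 and its relatives are small membrane-anchored proteins that alter the response of the receptor, and Ric3 is a chaperone of the alpha7 receptor. With library totals only, Ric3 lost its call (−0.11, adjusted p = 0.0800). The layer differences of Lypd1 and Lypd6 were not followed under alternatives. Lypd1 came nearest to a CNO effect of all listed cholinergic genes: in laminae I–II it lay at 31.4 to 33.8 CPM in the Saline and at 40.8 to 48.4 CPM in the CNO libraries, without overlap (log2 fold change 0.49 ± 0.10 SE, edgeR adjusted p = 0.0746). It passed in a fit of all 12 libraries (adjusted p = 0.0424), with no filter on low counts (0.00150) and without CNO library 1 (0.0351). In laminae III–VI its log2 fold change was −0.01 (95% interval −0.23 to 0.21, edgeR adjusted p = 0.991), and the difference between the layers did not pass (adjusted p = 0.593).

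Of the 11 listed genes for acetylcholine breakdown and choline supply 7 were tested, and 3 differed between the layers, against 58.4% of all tested genes. Slc44a5, a choline transporter-like gene, was higher in laminae I–II (0.45 on the log2 scale). Prima1, which anchors acetylcholinesterase in the membrane, and Slc44a1, a choline transporter, were lower (both −0.25). Prima1 and Slc44a1 lost their call with library totals only, and Slc44a5 with DESeq2 (adjusted p = 0.0546). Bche, encoding the related butyrylcholinesterase, did not differ between the layers (−0.08, edgeR adjusted p = 0.601), and had the smallest p of these genes for CNO in laminae III–VI (log2 fold change 0.45, adjusted p = 0.358). With no filter on low counts Bche passed there (0.45, adjusted p = 0.0376).

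Of the 17 G proteins, phospholipases and potassium channels through which muscarinic receptors act, 14 were higher in laminae I–II and 0 lower, against 29.1% and 29.3% of all tested genes. Their median log2 difference was 0.46, against 0.02 over all genes. They included Gnai2, a Gi alpha subunit (0.79), Gnaq, the Gq alpha subunit (0.46), Kcnj6, a potassium channel opened by M2 and M4 through G proteins (0.83), and Kcnq3 and Kcnq5, channels of the M-current that muscarinic receptors shut (0.78 and 0.63). These genes serve many other receptors as well. None passed the test for CNO in either layer, and the smallest p in laminae III–VI belonged to Gnaq (0.15, edgeR adjusted p = 0.505).

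Markers of the cells that could carry the cholinergic genes were read beside them. Of 8 transcription factors known from cholinergic neurons only Zeb2 passed the filter, and it did not differ between the layers (0.05, edgeR adjusted p = 0.382, but 0.22 with library totals only, adjusted p = 8.92e-05). Of 8 motoneuron markers 3 were tested, and Prph and Chodl were lower in laminae I–II (−1.75 and −0.68; Chodl lost its call with library totals only). The summed level of the 8 was 37.6 to 63.6 CPM in laminae III–VI, most of it Prph and Chodl, whereas the defining factors Mnx1 and Isl2 had 0 or 1 count in each deep library, Uts2b had 0, and Isl1 had 6 to 21. In laminae III–VI with CNO, Chodl was lower (−1.63, adjusted p = 0.0157) and Prph was higher (0.81, edgeR adjusted p = 0.0294), beside Chat at 0.28. Both calls were lost with limma-voom (adjusted p = 0.0895 each) and without several single libraries. They were also lost in the fit of all 12 libraries (edgeR adjusted p = 0.0689 for Chodl and 0.116 for Prph). Prph lost its call with library totals only as well (0.0505), and DESeq2 gave no adjusted p for either gene. The part of motoneurons in the Chat counts was not tested.

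Markers of other cells were counted in the same way, against the same 58.4% of all tested genes that differed between the layers. Of 6 inhibitory markers 2 were higher and 2 lower in laminae I–II, of 3 glutamatergic markers 2 were higher, and the Schwann cell markers Pmp22, Prx and Pmp2 were higher. Of 4 sensory neuron markers 2 were tested and 0 differed. With CNO, none of the inhibitory, glutamatergic, superficial or sensory markers passed in either layer in the edgeR fit as planned. Alternatives were followed only for the gene of each list with the smallest p in that layer. Among these genes, Gad2 and Calb1 passed under some alternatives. Gad2, an enzyme of GABA synthesis, had a log2 fold change of −0.24 in laminae III–VI (adjusted p = 0.352), and passed with no filter on low counts (0.0458) and without Saline library 3 (0.0272). Calb1, a calcium-binding protein, had one of −0.59 there (adjusted p = 0.220), and passed with no filter (0.00310) and without Saline library 3 (0.0267). In laminae I–II Calb1 stood at −0.34 (adjusted p = 0.236), and passed with no filter (0.0189).

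The genes most like Chat in pattern over the 12 libraries, by Pearson r of log2 CPM, were Slc27a4 (0.974), Mcam (0.974), Csk (0.964), RGD1311575 (0.963) and Pex5l (0.963). Those most like Chrm2 were Vps4b (0.972), Gria4, a subunit of AMPA receptors (0.971), Ccdc82 (0.969), Aktip (0.966) and Pafah1b1 (0.966). These values mostly carry the layer difference that all 12 points share. After the 4 group means were taken off, the genes most like Chrm2 were Vps4b (0.980), Ttk, Gnptab, Snx19 and Wdr13 (0.912), and those most like Chat were Fndc7 (0.943), LOC103690137, Bcar1, LOC108348101 and Dnah1 (0.928). Vps4b stood in both lists of Chrm2, while no gene stood in both lists of Chat, whose deviations rest on 1 to 32 counts per library. Among the 9 genes themselves, the deviations of Chat and Slc5a7 had an r of −0.35, and those of Chrm2 and Chrm3 one of 0.56.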

How the data were processed

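Total RNA was sequenced, for each microdissected layer, as 36-base paired-end reads from libraries made of 50 ng with a stranded SMART-Seq kit. The authors mapped the reads with CLC Genomics Workbench 10.1.1 and deposited total counts of reads per gene for 32623 genes with gene positions of the rat Rnor6 build. The strand setting of the counting is not given in the sources used here. The same tables hold quantile-normalized and transformed values and the p-value, fold change and FDR of the authors' EDGE test, none of which was used.

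The counts were tested with edgeR 4.0.16 (filterByExpr with a minimum count of 10 and a minimum total of 15, TMM, quasi-likelihood test, Benjamini-Hochberg adjustment) in R 4.3.3. CNO was tested within each layer, and the layers and the interaction over all 12 libraries. Genes below the filter were tested by exact permutation with scipy 1.17.1 on CPM. The statistical code was checked on simulated counts with known changes. Alternatives were DESeq2 1.42.0, limma-voom 3.58.1, RLE factors, library totals, other filters, one fit of all libraries, a replicate block, and leaving out each library. No transcript length was used. Promoter letters come from RefSeq (GRCr8).

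The 9 genes and the 11 lists (88 of 90 entries found) were chosen with earlier results of these data known. Named genes are all 9, and from each list and comparison the genes past the adjusted threshold, at most the 4 with the smallest p, or else the 1 with the smallest p, and for Chat and Chrm2 the 5 genes most like them. The layer values of Lypd1, Lypd6, Gnaq and Bche, the ranges of the motoneuron factors and the gene ratios were added after values were seen. Some genes that the rule selects are not reported here.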

Additional observations from a re-analysis of the deposited data

How the results depend on the processing

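In the comparison of the layers, all 8 tested genes kept their direction, and 7 kept their call, under every alternative tried. Slc5a7 was the exception, with the values given above, and the cause was not tested. Of the 9 genes, only Slc5a7 passed for CNO under an alternative, in laminae I–II with no filter on low counts. Not every alternative gave an adjusted p. Chat in laminae I–II and Chrm1, Chrm4 and Chrm5 in laminae III–VI had one only with no filter, and Slc18a3 had none. In laminae III–VI DESeq2 gave none for Chat, Slc5a7, Chrm2 and Chrm3. The count of genes changed by CNO over the whole table moved more. In laminae I–II it was 19, but 131 with no filter and 9 with DESeq2, and it was 3 (without CNO library 2) to 29 (without Saline library 1) when single libraries were left out. In laminae III–VI it was 18, but 112 with no filter and 0 in the fit of all 12 libraries, and 0 (without CNO library 3) to 93 (without Saline library 3) with single libraries left out. For the interaction it was 2, but 86 with no filter and 5 with DESeq2, and 0 to 5 with single libraries left out. The cause was not tested.

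Values that changed sign were not past the threshold on either side. Chrm2 in laminae I–II became 0.0111 with no filter, 0.00894 with limma-voom, 0.00454 in the fit of all libraries, and −0.134 to 0.133 without single libraries. Chrm3 in laminae III–VI became 0.00147 with RLE factors, 0.000258 with the filter of 1 CPM, 0.00431 in the fit of all libraries, and −0.0484 to 0.0697 without single libraries. Without single libraries Ache in laminae I–II ranged from −0.0858 to 0.0243, Chrm5 in laminae I–II from −0.00662 to 0.379, Slc5a7 in laminae III–VI from −0.0456 to 0.288, and the interaction of Chrm1 from −0.483 to 0.718. Chrm1 in laminae III–VI, below the filter, ranged from −1.25 to 0.0992, an alternative chosen after seeing the data. Among the list genes, Avil in laminae III–VI ranged from −0.146 to 0.423, Zeb2 in laminae III–VI from −0.0733 to 0.0394 and the interaction of Zeb2 from −0.0984 to 0.0277 without single libraries, the last also 0.00519 with library totals only.

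Replicate numbers were checked as a pairing. The correlation of deviations from the group means between the 2 layers, for libraries of one treatment and number, was just under 0.1 to 0.172 in the Saline libraries and 0.132 to 0.148 in the CNO libraries. All 6 libraries of each treatment were most like the library of their own number. The same held between the Saline and CNO libraries of one layer. Their same-number correlations were 0.0193 to 0.0438 in laminae I–II and 0.0582 to 0.113 in laminae III–VI. The labels do not say that a number marks a rat, so the numbers were not taken as a pairing. With the number as a replicate block, CNO called 78 genes in the superficial and 194 in the deep layer, the layers differed in 8585 genes, and the interaction passed in 59. The block changed the call of none of the 9 genes in any comparison where they were tested. Under the block, Chrm2 in laminae I–II became 0.00111 and Chrm3 in laminae III–VI 0.00241. Of the listed genes that were followed under alternatives, Lypd1 in laminae I–II passed (edgeR adjusted p = 0.0144), as did Calb1 there (0.0379). In laminae III–VI Chrna4 (0.0401), Bche (0.0266), Gad2 (0.00582) and Calb1 (0.00658) passed. The interaction of Pmp22 passed under the block too (0.000134). That interaction (adjusted p = 0.114 as planned) also passed with no filter (2.63e-29) and without any 1 of 4 superficial libraries (0.0263 to 0.0469).

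Depth limits the sparse genes most. A count of 0 allows up to 0.380 to 0.572 CPM per library, so Chat in laminae I–II and Chrm1, Chrm4 and Chrm5 in laminae III–VI lay near that limit in single libraries, and with 3 libraries against 3 no exact permutation test of a single gene can fall below p = 0.1. The limit that a count of 0 allows covers counting error only, whereas the 95% intervals come from the edgeR fits and include the spread between libraries.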
